A study of Mus musculus with 33 samples.

Results

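The genes described here are 7 genes of endoplasmic reticulum sterol sensing and of feedback on the transcription factor SREBP2: Srebf2, Scap, Mbtps1, Mbtps2, Insig1, Insig2 and Stard4. They were measured in the hippocampus of 33 male mice, 1 Affymetrix MOE430 2.0 array per animal, and are 7 of the 18194 genes that the array's annotation names. The members were taken as every probe set annotated to exactly 1 of these genes, which gave 15 probe sets: 2 for Srebf2, 2 for Scap, 3 for Mbtps1, 1 for Mbtps2, 1 for Insig1, 3 for Insig2 and 3 for Stard4. In the RefSeq annotation of GRCm38.p6 the genes lie on chromosomes 15, 9, 8, X, 5, 1 and 18, in that order.

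There were 11 Tg2576 mice given TO901317, a small molecule that activates LXR, the liver X receptors, 11 Tg2576 mice given vehicle and 11 wild-type littermates given vehicle. Tg2576 animals were heterozygous for a human amyloid precursor protein carrying the Swedish familial Alzheimer mutation, driven by a prion promoter, and the wild-type animals lacked it; all were on a mixed SJL × C57BL/6J background. The drug was given by gavage at 50 mg/kg per day, for 7 days in one of the submitters' descriptions and for 5 days in another, to mice aged 20 weeks, and tissue was taken 1 hour after the last dose. No wild-type animals with the drug were analysed here, so the drug was seen only in the transgenic background, and the Tg2576 vehicle and wild-type animals each served in 2 of the 3 comparisons.

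SREBP2, the product of Srebf2, is made as a precursor in the endoplasmic reticulum membrane, where it is bound to the sterol sensor SCAP. When sterol is plentiful, SCAP binds INSIG1 or INSIG2 and the complex stays in the endoplasmic reticulum; when sterol is scarce, SCAP carries SREBP2 to the Golgi, where the site-1 protease (Mbtps1) and then the site-2 protease (Mbtps2) release the active factor. The released factor switches on the enzymes of cholesterol synthesis, the LDL receptor, INSIG1 and its own gene, and STARD4 is a small soluble carrier that moves cholesterol between membranes. In the adult brain nearly all cholesterol is made locally, since lipoproteins of the blood do not cross the blood-brain barrier.

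Stard4 was the member that differed most firmly between genotypes: 1 of its probe sets was 1.36-fold higher in Tg2576 vehicle than in wild-type hippocampus, and 10 of the 11 transgenic animals lay above every wild-type animal. Insig1 and 1 of the 2 Srebf2 probe sets stood 1.24-fold and 1.20-fold higher in the same comparison without passing the limit used here, an adjusted p of 0.05 over all 27022 probe sets tested. Scap, Mbtps1, Mbtps2 and Insig2 differed between Tg2576 vehicle and wild type by at most 0.083 on the log2 scale in any tested probe set. With TO901317, no member passed against Tg2576 vehicle animals or against wild-type animals. Folds and log2 differences here are on the log2(signal + 16) scale, where the added 16 shrinks the differences of dim probe sets.

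Of the 15 probe sets, 13 exceeded a mean signal of 13.9, the limit that left out the lowest 40% of the array, and were tested. In Tg2576 vehicle against wild-type animals 1 of the 13 passed, where 43 of all 27022 probe sets, or 0.159%, did. In that comparison 5 of the 13 had an unadjusted p under 0.05, against 9.7% of all probe sets, and 9 of the 13 lay above 0, against 50.1% of all. The 5 were the 3 Stard4 probe sets, Insig1 and 1 of the 2 Srebf2 probe sets. Probe sets of 1 gene are not independent readings, here and in the counts below. The median of the 13 differences was 0.019, and that over all probe sets was 0.000. For TO901317 against vehicle in Tg2576 animals limma with Benjamini-Hochberg adjustment called 0 of the 13, where 0.141% of all passed; 2 had an unadjusted p under 0.05, against 10.5% of all, and a rank-sum test also called 0, with 1 at an unadjusted p under 0.05. Of the 13 differences 7 lay above 0, against 51.3% of all. The median difference of the members there was 0.003, beside 0.004 over all probe sets. For TO901317-treated Tg2576 against wild-type animals limma again called 0 of the 13, where 0.144% of all passed; 4 had an unadjusted p under 0.05, against 8.2% of all, and the rank-sum test called 0, with 4 at an unadjusted p under 0.05. In this last comparison 11 of the 13 lay above 0, against 52.2% of all probe sets, with a median of 0.117, beside 0.005 over all.

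**Figure D1:**
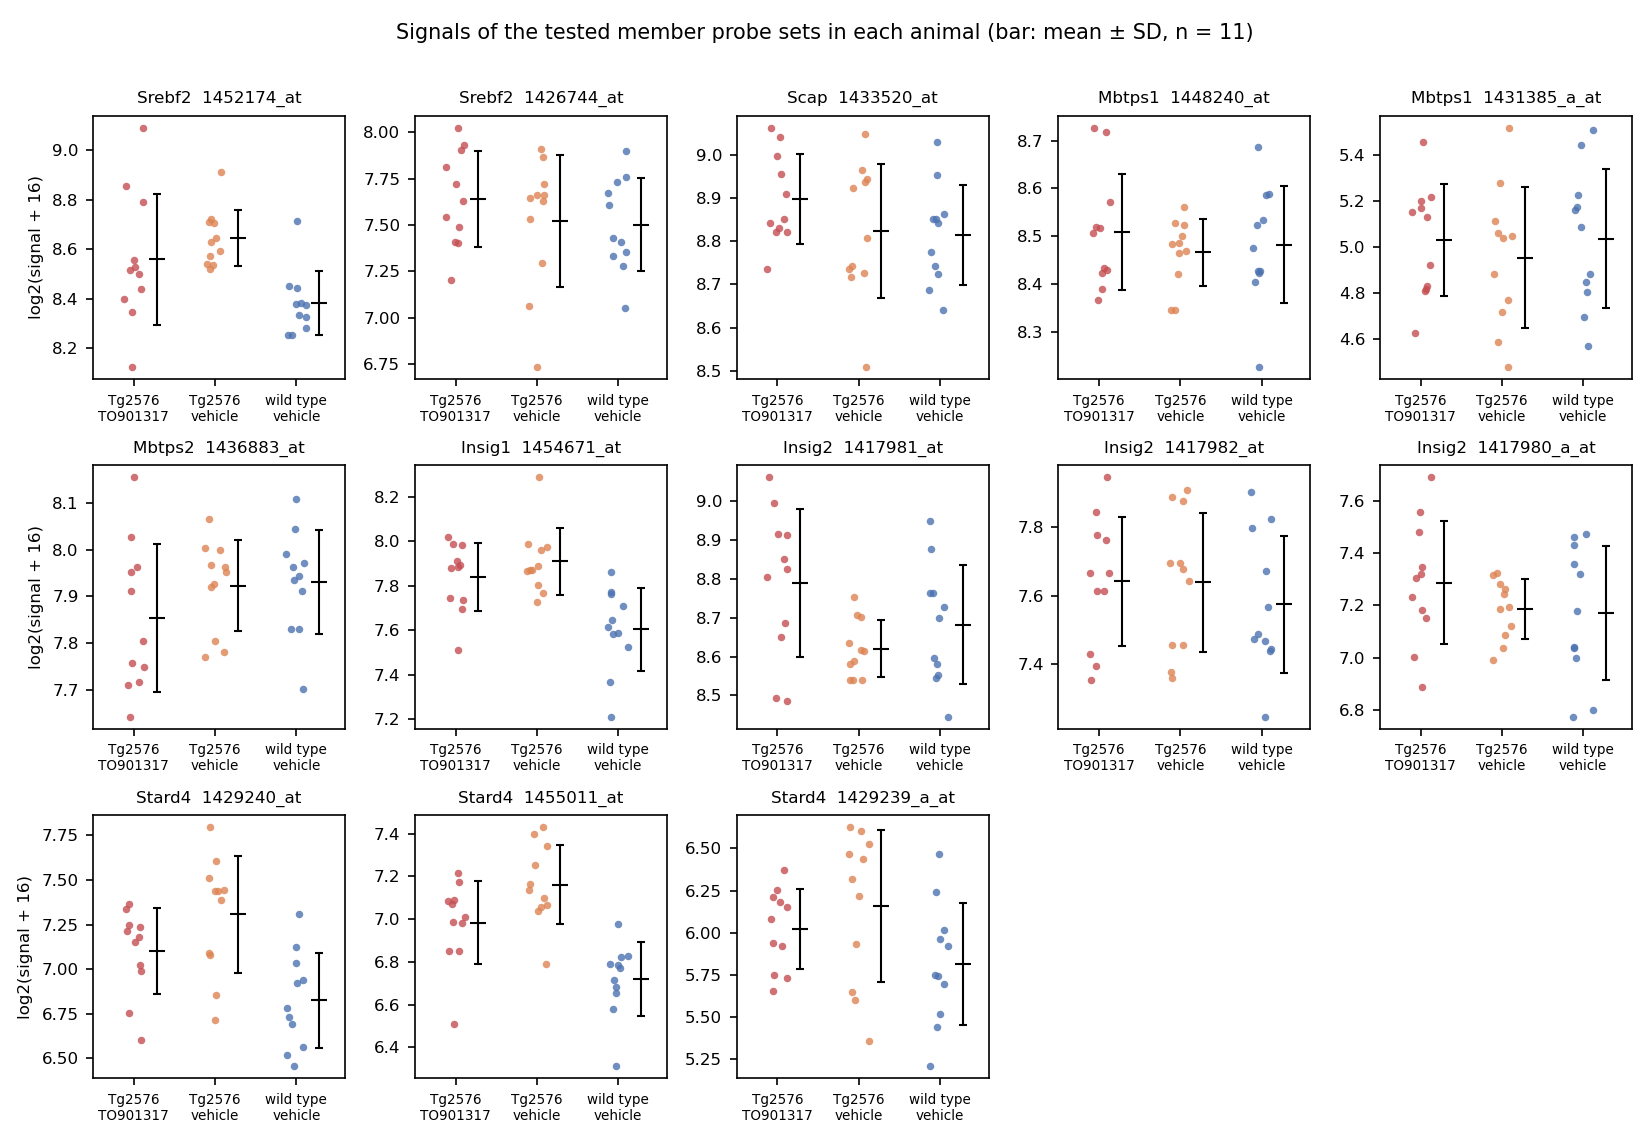
Signal of each tested member probe set in every animal, as log2(signal + 16) on the vertical axis, for Tg2576 TO901317, Tg2576 vehicle and wild-type vehicle animals; points are animals, and the bar is the mean ± SD (n = 11). The 2 vehicle groups separate most for Stard4 probe set 1455011_at, where 10 of 11 Tg2576 vehicle animals lie above every wild-type animal. All 3 groups overlap for every probe set shown, those of Scap, Mbtps1, Mbtps2 and Insig2 included.

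The arrays shared a trimmed mean signal of 99.97 and had medians of 19.4 to 28.9. Markers of hippocampal neurons were present: all 7 measured markers of CA pyramidal neurons and all 8 of dentate granule neurons exceeded the limit, while neither of the 2 measured blood cell markers did. The 3'/5' ratio of the Gapdh controls, a sign of RNA quality, spread more among Tg2576 vehicle arrays, with an SD of 0.143 on the log2 scale, against 0.052 among TO901317 and 0.054 among wild-type arrays. The 3 arrays that correlated least with their own group, replicates 11, 4 and 3, were also Tg2576 vehicle arrays. Since these are arrays of whole tissue, fewer cells of a type and less RNA per cell cannot be told apart in any value below.

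Srebf2, the gene of the transcription factor itself, was read by probe sets 1452174_at and 1426744_at. With 1452174_at the signal ran from 262.7 to 529.7 (median 350.4) in TO901317-treated Tg2576 animals, from 351.6 to 465.5 (median 380.1) in Tg2576 vehicle animals and from 288.9 to 404.4 (median 315.4) in wild-type animals. Of the 11 wild-type animals 10 lay below every Tg2576 vehicle animal, whereas the treated animals spread across the range of both other groups. The means were 367 ± 74.1 in treated Tg2576, 385 ± 33.1 in vehicle Tg2576 and 319 ± 32.3 in wild-type hippocampus (SD, n = 11 each). The difference of Tg2576 vehicle from wild type was 0.26 (95% interval 0.11 to 0.42, limma adjusted p = 0.172). Treated animals differed from Tg2576 vehicle by -0.086 (-0.24 to 0.067, adjusted p = 0.739) and from wild type by 0.18 (0.025 to 0.33, adjusted p = 0.496).

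The other Srebf2 probe set, 1426744_at, gave a different picture. Its signal ran from 131.6 to 244.6 (median 181.7) in treated Tg2576, from 90.43 to 224.7 (median 184.1) in vehicle Tg2576 and from 116.6 to 222.9 (median 156.4) in wild-type animals, and the groups overlapped almost wholly. Tg2576 vehicle differed from wild type by 0.019 (-0.22 to 0.26, limma adjusted p = 0.978), and treated animals differed from Tg2576 vehicle by 0.12 (-0.12 to 0.36, adjusted p = 0.769). Its lowest Tg2576 vehicle signals, 90.43, 117.9 and 141.2, were those of replicates 3, 5 and 4, and replicates 3 and 4 had the highest signals of that group with 1452174_at. Without replicates 3 and 4, both arrays of high Gapdh ratio, Tg2576 vehicle differed from wild type by 0.13 with 1426744_at and by 0.23 with 1452174_at (limma adjusted p = 0.783 and 0.359). The deviations of the 2 Srebf2 probe sets from their group means correlated at r = 0.22 over 33 arrays (permutation p = 0.198), and at 0.49 without the 2 arrays farthest from the median. The difference read for Srebf2 between genotypes depended on the probe set, and neither probe set passed.

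The stretch around the transcription start of Srebf2 is shown because Srebf2 is itself a known target of its protein, through a sterol response element. The 300 bases from 250 before to 50 after the RefSeq start, read 5′ to 3′ on the plus strand at chr15:82147019-82147318 of GRCm38.p6, carry in capitals a sterol response element core (TCACNCCA), a CCAAT box (CCAAT, here as ATTGG) and GC boxes (GGGCGG, or CCGCCC on the other strand).
Srebf2: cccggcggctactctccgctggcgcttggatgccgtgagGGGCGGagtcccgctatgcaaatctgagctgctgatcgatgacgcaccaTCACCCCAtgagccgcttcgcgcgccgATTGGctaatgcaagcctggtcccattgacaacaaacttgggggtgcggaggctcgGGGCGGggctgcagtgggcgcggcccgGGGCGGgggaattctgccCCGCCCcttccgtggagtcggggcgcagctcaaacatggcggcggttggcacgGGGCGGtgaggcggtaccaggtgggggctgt
The sterol response element core began 162 bases before the start and the CCAAT box 135 bases before it, and 5 GC boxes lay in the window, none of these overlapping. Across 32851 RefSeq windows of this length, searched on both strands, the sterol response element core was found in 4.36%, the CCAAT box in 37.4% and the GC box in 35.7%. The motifs were chosen with these sequences in view, and a match describes letters, not bound sites.

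Scap encodes the sterol sensor and escort of SREBP2. Its signal with 1433520_at ran from 410.5 to 518.4 (median 445.9) in TO901317-treated Tg2576, from 348.4 to 513.2 (median 432.2) in vehicle Tg2576 and from 383.5 to 506.3 (median 442.7) in wild-type animals. Of the 11 treated animals 10 exceeded the Tg2576 vehicle median, yet the ranges overlapped nearly throughout. Tg2576 vehicle differed from wild type by 0.008 (-0.10 to 0.12, limma adjusted p = 0.979) and treated from vehicle Tg2576 by 0.074 (-0.038 to 0.19, adjusted p = 0.682), so a change beyond 0.19 in either direction lay outside both 95% intervals. The other Scap probe set, 1442885_at, averaged a signal of 9.27 over all arrays, below the limit, and was not tested.

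Mbtps1 encodes the site-1 protease, which makes the first of the Golgi cuts in SREBP2. With 1448240_at its signal averaged 349.5 ± 31.8 in treated Tg2576, 338 ± 17.0 in vehicle Tg2576 and 343 ± 30.1 in wild-type animals (SD, n = 11 each). The differences were -0.016 (-0.12 to 0.084) for Tg2576 vehicle from wild type, 0.043 (-0.057 to 0.14) for treated from vehicle Tg2576 and 0.027 (-0.073 to 0.13) for treated Tg2576 from wild type, with limma adjusted p-values of 0.954, 0.813 and 0.949. The dimmer 1431385_a_at, with a mean signal of 16.8 close to the limit, gave -0.083, 0.077 and -0.007 in the same order. The remaining probe set, 1431386_s_at, lay below the limit; its signal averaged 7.24 ± 4.44 in treated Tg2576, 12.6 ± 6.71 in vehicle Tg2576 and 10.5 ± 8.72 in wild-type animals, and 10 of the 11 treated animals lay at or below the Tg2576 vehicle median.

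Mbtps2 encodes the site-2 protease, which makes the second cut, within the membrane. Its signal with 1436883_at ran from 183.8 to 269.1 (median 207.6) in treated Tg2576, from 202.2 to 252 (median 231.5) in vehicle Tg2576 and from 192 to 260 (median 230.2) in wild-type animals. Of the 11 treated animals 5 lay below every Tg2576 vehicle animal, and 1 lay above all of them. Tg2576 vehicle differed from wild type by -0.007 (-0.12 to 0.11, limma adjusted p = 0.983), treated from vehicle Tg2576 by -0.069 (-0.18 to 0.044, adjusted p = 0.711) and treated Tg2576 from wild type by -0.076 (-0.19 to 0.037, adjusted p = 0.810). A further probe set names both Mbtps2 and Yy2, and was therefore no member.

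Insig1 encodes the retention protein whose own transcription is switched on by SREBP2, which makes its mRNA a common readout of the pathway. Its signal with 1454671_at ran from 166.7 to 243.2 (median 220.1) in treated Tg2576, from 195.5 to 296.4 (median 218.1) in vehicle Tg2576 and from 132.1 to 216.3 (median 180.2) in wild-type animals. All 11 Tg2576 vehicle animals lay above the wild-type median and 8 of them above every wild-type animal, while treated and vehicle Tg2576 animals overlapped. The means were 214 ± 23.4 in treated Tg2576, 226 ± 27.0 in vehicle Tg2576 and 179.9 ± 24.2 in wild-type animals (SD, n = 11 each).

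Tg2576 vehicle differed from wild type in Insig1 by 0.31 (0.17 to 0.45), which narrowly missed the limit (limma adjusted p = 0.0531). It passed when wild-type replicate 5 was left out (adjusted p = 0.0235), and likewise without Tg2576 vehicle replicate 5 (0.0482) or replicate 6 (0.0499). These were the only 3 of 22 fits without 1 array in which it passed, and its adjusted p there reached 0.11. With 1 probe set per gene, which tests 12765 genes in place of 27022 probe sets, it passed at the same difference (adjusted p = 0.0365); over 17 alternative settings the adjusted p ran from 0.0317 to 0.421 and 5 passed. Treated Tg2576 differed from vehicle Tg2576 by -0.068 (-0.21 to 0.073, adjusted p = 0.783), and from wild type by 0.24 (0.097 to 0.38, adjusted p = 0.208).

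The start of Insig1 is shown for comparison with that of Srebf2. The window, on the plus strand of chr5:28071162-28071461 of GRCm38.p6, carries in capitals an E box (CACGTG, which reads the same on both strands), a CCAAT box as ATTGG and GC boxes; the sterol response element letters TCACNCCA are not in it.
Insig1: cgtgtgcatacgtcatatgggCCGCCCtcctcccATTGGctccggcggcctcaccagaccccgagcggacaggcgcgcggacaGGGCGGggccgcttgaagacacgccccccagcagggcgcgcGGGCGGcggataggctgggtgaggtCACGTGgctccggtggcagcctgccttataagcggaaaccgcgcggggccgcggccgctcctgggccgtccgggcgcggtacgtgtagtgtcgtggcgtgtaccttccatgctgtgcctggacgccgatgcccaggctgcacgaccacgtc
The E box began 101 bases before the start and the CCAAT box 216 bases before it, and 3 GC boxes lay between them or upstream, with no overlap among these matches. The E box letters were found in 7.15% of all windows. Windows of Insig2, Scap, Mbtps1 and Mbtps2 were searched in the same way: the same E box lay in both Scap windows, which overlap, none of these held the sterol response element core, and Mbtps2 held no match to any motif searched. The ideal form of an LXR site, AGGTCA repeated after a gap of 4 bases, was in none of the 9 windows of the 6 genes searched and in 0.0152% of all windows. No window of Stard4 was among these 9, so nothing is said here of its motifs.

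Insig2 encodes the second retention protein, which is not driven by SREBP2 in the way that Insig1 is. With 1417981_at its signal ran from 342.4 to 518.6 (median 437.5) in treated Tg2576, from 355.9 to 415.6 (median 376) in vehicle Tg2576 and from 332.5 to 478.3 (median 399.9) in wild-type animals. Of the 11 treated animals 7 lay above every Tg2576 vehicle animal and 2 lay below every one of them, since the vehicle animals spanned a narrow range. Treated animals differed from Tg2576 vehicle by 0.17 (0.043 to 0.30, unadjusted p = 0.0101 in limma), the smallest p among the members for the drug in Tg2576, and this did not pass after adjustment (adjusted p = 0.306). Treated Tg2576 differed from wild type by 0.11 (-0.019 to 0.23), and vehicle Tg2576 from wild type by -0.062 (-0.19 to 0.065).

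The other Insig2 probe sets did not repeat that size. Treated differed from vehicle Tg2576 animals by 0.10 (-0.076 to 0.28) with 1417980_a_at and by 0.003 (-0.16 to 0.17) with 1417982_at. Among animals, the 3 Insig2 probe sets correlated at r = -0.01, 0.11 and 0.17 in pairs, with permutation p-values from 0.358 to 0.978 over 33 arrays.

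Stard4, the cytosolic sterol carrier and a known SREBP2 target, was read by 3 probe sets, and all of them were higher in Tg2576 vehicle than in wild-type animals. With 1455011_at the signal ran from 75.22 to 132.9 (median 112.7) in treated Tg2576, from 94.56 to 156.6 (median 124.6) in vehicle Tg2576 and from 63.38 to 110 (median 93.28) in wild-type animals. Only 1 Tg2576 vehicle animal, replicate 8, lay within the wild-type range. The means were 112 ± 15.95 in treated Tg2576, 128 ± 18.4 in vehicle Tg2576 and 90.0 ± 11.9 in wild-type animals (SD, n = 11 each). Vehicle Tg2576 exceeded wild type by 0.44 (0.28 to 0.60, limma adjusted p = 0.00343), which ranked 16 by p among all 27022 probe sets. None of the 13 member probe sets separated these 2 groups fully, which 0.0259% of all probe sets did; nor did any separate treated from vehicle Tg2576 (0.0074% of all) or treated Tg2576 from wild type (0.0148% of all).

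Probe set 1429240_at showed a difference of like size with more spread. Its signal averaged 123 ± 21.4 in treated Tg2576, 146 ± 35.2 in vehicle Tg2576 and 99.2 ± 21.9 in wild-type animals, and 7 of the 11 Tg2576 vehicle animals lay above every wild-type animal. The others were replicates 2 to 5, a run of consecutive numbers. They had signals of 89.07 to 120.5, against 151.6 to 206.6 in the remaining Tg2576 vehicle animals. Vehicle Tg2576 exceeded wild type by 0.48 (0.25 to 0.71), which did not pass (limma adjusted p = 0.0737). It passed without wild-type replicate 6 (adjusted p = 0.0325), without Tg2576 vehicle replicate 4 (0.0208) or without replicate 5 (0.0357). These were the only 3 of 22 fits without 1 array in which it passed, and its adjusted p there reached 0.134. The dimmest, 1429239_a_at, gave 0.34 (0.049 to 0.64, adjusted p = 0.423), with mean signals of 49.8 ± 10.6 in treated Tg2576, 58.4 ± 20.8 in vehicle Tg2576 and 42.0 ± 14.8 in wild-type animals. Its signals in Tg2576 vehicle replicates 2 to 5 were 25.04 to 45.24, against 58.39 to 82.81 in the rest of that group.

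With TO901317 all 3 Stard4 probe sets were lower than in Tg2576 vehicle animals, and none passed. The differences were -0.18 (-0.34 to -0.019, limma adjusted p = 0.409) for 1455011_at, -0.21 (-0.44 to 0.024, adjusted p = 0.535) for 1429240_at and -0.14 (-0.43 to 0.16, adjusted p = 0.795) for 1429239_a_at. No treated animal reached the Tg2576 vehicle median with 1429240_at, and 2 did with 1455011_at. Treated Tg2576 animals differed from wild type by 0.26 (0.11 to 0.42, adjusted p = 0.222), 0.28 (0.045 to 0.51, adjusted p = 0.469) and 0.21 (-0.086 to 0.50, adjusted p = 0.789) in the same order, with 8 of 11 treated animals above every wild-type animal for 1455011_at. For Stard4 the treated group therefore lay between vehicle Tg2576 and wild type in mean, and was not separable from either neighbour at the adjusted limit.

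**Figure D2:**
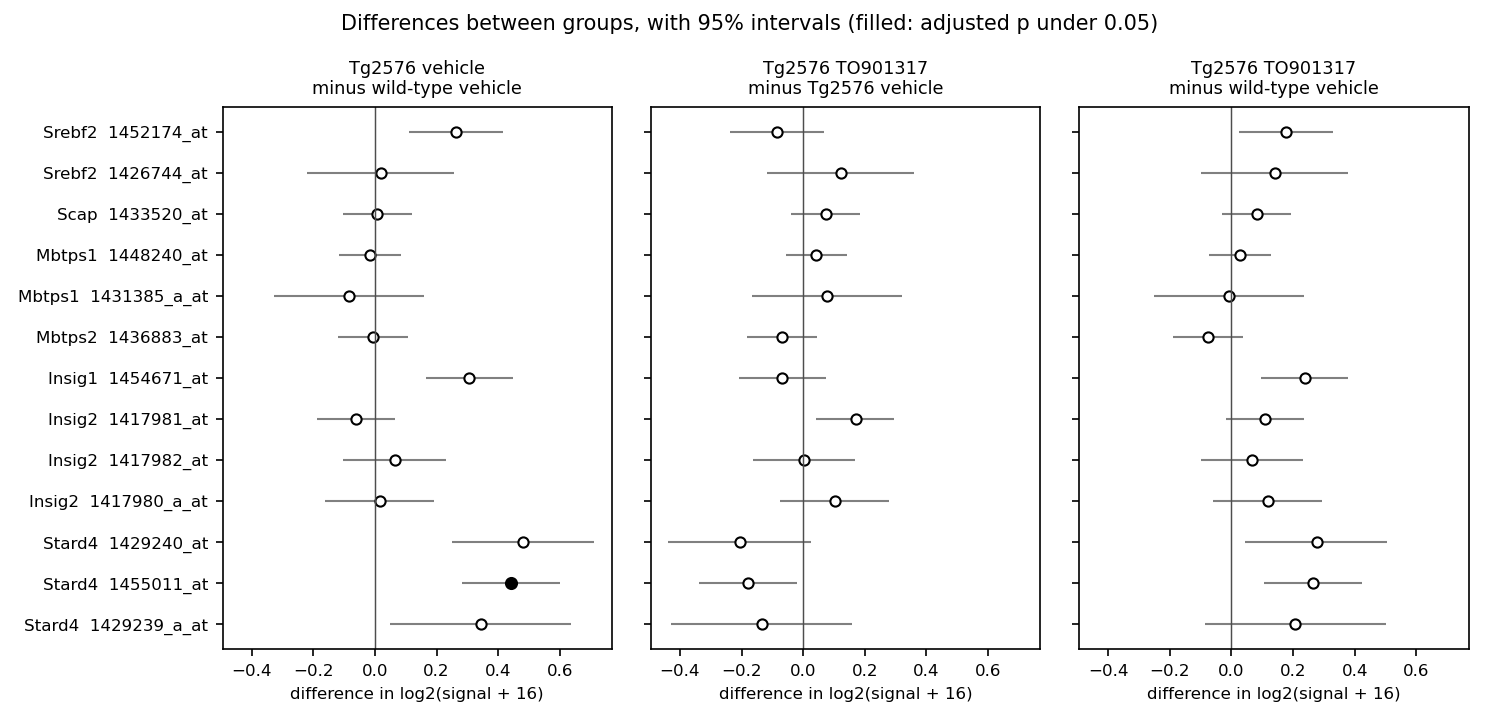
Difference of each tested member probe set in log2(signal + 16) on the horizontal axis, with 95% intervals from limma, for the 3 comparisons; a filled point has an adjusted p under 0.05. Only Stard4 1455011_at is filled, at 0.44 for Tg2576 vehicle minus wild-type vehicle, and the 3 Stard4 probe sets lie below 0 for TO901317 minus vehicle in Tg2576.

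Markers of other cell types were read beside the genotype differences of Stard4 and Insig1. All 8 dentate granule markers were measured: 1 fell in Tg2576 vehicle against wild type, their summed signal ran from 1293 to 1815 in Tg2576 vehicle and from 1386 to 1842 in wild-type animals, and their median difference was -0.20. Of 10 astrocyte markers 1 fell, with sums of 10400 to 12240 in Tg2576 vehicle and 10480 to 14110 in wild-type animals. None of 9 meningeal fibroblast markers passed, and their median difference was 0.48, with sums of 650.7 to 1954 in Tg2576 vehicle and 534.7 to 1778 in wild-type animals. With the astrocyte, oligodendrocyte, meningeal, choroid plexus and dentate scores added to the fit, Stard4 1455011_at differed by 0.52 and no longer passed (adjusted p = 0.28), in a fit that called 1 of all 27022 probe sets. Over its 15 alternative settings the adjusted p of that probe set ran from 0.00253 to 0.303, and 13 passed. Without both Tg2576 vehicle arrays of high Gapdh ratio, Stard4 1429240_at differed by 0.57 and passed (adjusted p = 0.0131); it passed in 6 of 17 alternative settings, with adjusted p-values from 0.00415 to 0.53.

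The probe sets of Stard4 did not all follow each other among animals. After removal of group means, 1429239_a_at and 1429240_at correlated at r = 0.77 over 33 arrays (Spearman rho 0.79, permutation p = 2e-05, adjusted p = 0.00016 over the 8 same-gene pairs), and at 0.74 without the 2 arrays farthest from the median. Both were lowest among Tg2576 vehicle animals in replicates 2 to 5, and the part of these animals in that r was not tested. Probe set 1455011_at correlated with 1429240_at at r = 0.42 (rho 0.33, permutation p = 0.0184, adjusted p = 0.0735) and with 1429239_a_at at 0.19 (rho 0.21, permutation p = 0.307). Of the 8 same-gene pairs 6 lay at an r of 0.22 or below, the Mbtps1 pair at -0.25.

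**Figure D3:**
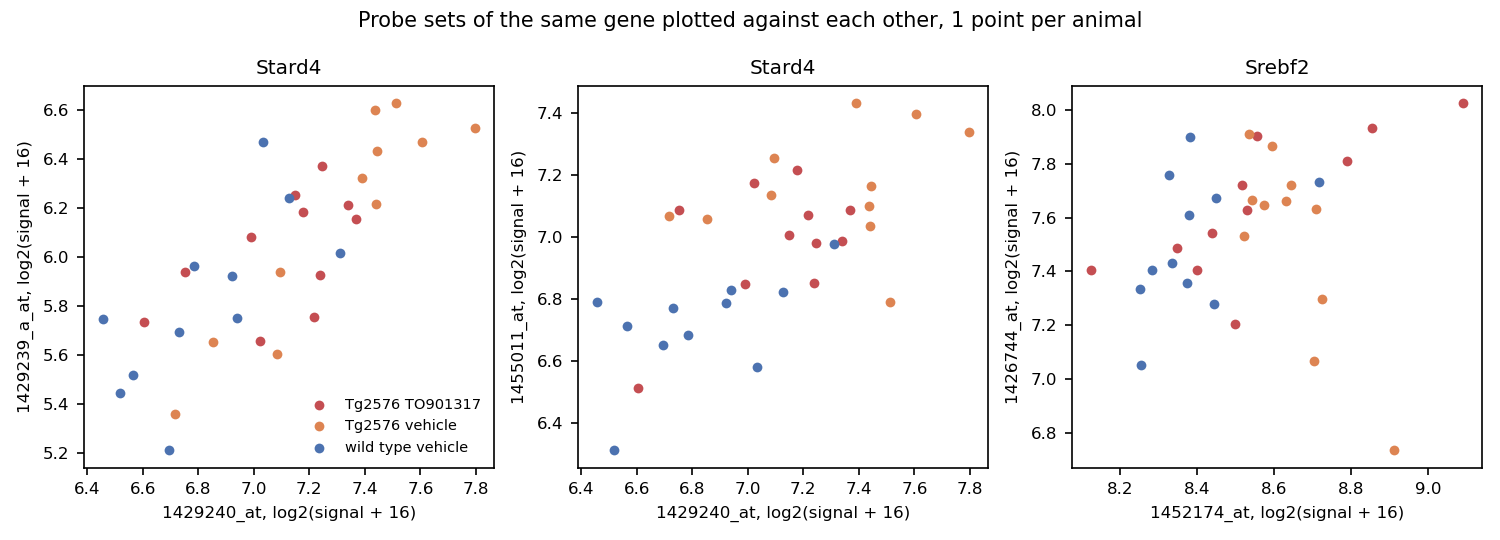
Probe sets of the same gene against each other, both axes in log2(signal + 16), 1 point per animal, coloured by group. Stard4 1429240_at and 1429239_a_at rise together within each group (r = 0.77 after removal of group means), whereas Stard4 1455011_at (r = 0.42) and the Srebf2 pair (r = 0.22) scatter more widely.

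Whether members varied together between animals of 1 group was examined for the 21 pairs of the 7 genes, each by its probe set of highest mean. No pair passed Benjamini-Hochberg adjustment of the Pearson permutation p, and 3 had an unadjusted p under 0.05. The proteases Mbtps1 and Mbtps2 had r = 0.52 over 33 arrays (permutation p = 0.0043, adjusted p = 0.0899), with 0.54 in treated Tg2576, 0.57 in vehicle Tg2576 and 0.50 in wild-type animals, and 0.41 without the 2 farthest arrays; their Spearman rho of 0.56 did pass (permutation p = 0.0016, adjusted p = 0.0336). Srebf2 and Mbtps1 had r = -0.47 (rho -0.36, permutation p = 0.0125, adjusted p = 0.132), and Insig1 and Mbtps1 had r = -0.42 (rho -0.43, permutation p = 0.0217, adjusted p = 0.152). Srebf2 and Mbtps1 stood at -0.67 in treated Tg2576, 0.19 in vehicle Tg2576 and -0.47 in wild-type animals. Insig1 and Stard4, both SREBP2 targets, reached r = 0.30 (rho 0.25, permutation p = 0.0945, adjusted p = 0.392). The permutations take the animals of a group as exchangeable, and an order by replicate number was not tested. Such an order was visible in treated Tg2576. There Mbtps1 ran from 313.9 to 329.9 in replicates 1 to 5 and from 347.6 to 407.7 in replicates 6 to 11. Mbtps2 ran from 183.8 to 207.6 in replicates 1 to 6 and from 224.8 to 269.1 in replicates 7 to 11. The permutation p-values cannot tell such an order from a link between the genes. In treated Tg2576 both proteases were highest in replicate 11. Their highest signals were in replicates 9 and 7 in vehicle Tg2576 and in replicates 9 and 11 in wild-type animals.

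The genes most like each member, by the same r over 33 arrays, are given as a description. Each was picked as highest among all tested probe sets that name 1 gene outside the members. For Srebf2 1452174_at the first was Pmvk, phosphomevalonate kinase of cholesterol synthesis, at r = 0.76, followed by Tomm7 at 0.71 and Alkbh4 at 0.70. Of the 27009 tested probe sets that were no member, 95% lay between -0.44 and 0.46. For Insig1 they were Pla2g15, a lysosomal phospholipase, at 0.66, Tpgs1 at 0.65 and Tfpt at 0.63. For Stard4 1429240_at they were Lrrtm2 at 0.79, Dcun1d2 at 0.75 and Ttc3 at 0.75. Scap was closest to C2cd2l (0.83), Atxn7l3 (0.80) and Fntb (0.79), Insig2 to Spon1 (0.62), Rbm15 (0.61) and Klhl25 (0.60), Mbtps1 to Ezh1, Rbm25 and Ddx39a (0.70 each) and Mbtps2 to Kdm7a (0.79), Ralgps2 (0.78) and Tmem128 (0.78). Against 18 SREBP2 target genes of isoprenoid and sterol synthesis, Srebf2 had a median r of 0.38 with 17 above 0, Insig1 0.24 with 16 above 0 and Scap 0.22 with 13 above 0. Stard4 had a median r of 0.08 with 12 above 0, Insig2 0.06 with 12 above 0, Mbtps2 -0.06 with 8 above 0 and Mbtps1 -0.32 with 3 above 0. Over the 27009 probe sets the median r lay between -0.06 and 0.02 for the 7 members. Of the 18 targets, 5 for Srebf2, 6 for Insig1 and 0 for each other member lay above the range that held 95% of those probe sets. The upper end of that range was 0.46 for Srebf2, 0.38 for Insig1 and 0.52 for Scap. Targets below the range were not counted. The lowest target lay below it only for Mbtps1, with Msmo1 at -0.70 where the lower end was -0.45.

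The wider pathway was read through 5 lists, each gene by its probe set of highest mean. Of the 18 SREBP2 target genes of isoprenoid and sterol synthesis, 6 rose and none fell in Tg2576 vehicle against wild type, and all 18 differences lay above 0, with a median of 0.23. Fdft1, squalene synthase, averaged a signal of 681 ± 88.9 in Tg2576 vehicle and 456 ± 43.2 in wild-type animals, a difference of 0.56 (limma adjusted p = 1.15e-05), and Fdps, Sqle and Nsdhl differed by 0.48, 0.49 and 0.41. With TO901317 against vehicle in Tg2576, 3 of the 18 fell and none rose, with 17 below 0 and a median of -0.23. Beside this, 1 of 7 endothelial markers rose, with a median of 0.17 and summed signals of 960.3 to 1289 in treated and 816.3 to 1181 in vehicle Tg2576 animals. None of 8 choroid plexus or 9 meningeal markers passed, with medians of 0.25 and -0.19; their sums were 971.4 to 8832 and 447.6 to 1488 in treated, and 211.2 to 7652 and 650.7 to 1954 in vehicle Tg2576 animals, and their part in the result was not tested. The 3 targets that fell were Idi1 at -0.37, Sqle at -0.36 and Hmgcs1 at -0.25, enzymes of the isoprenoid, squalene and first mevalonate steps. Between treated Tg2576 and wild-type animals none of the 18 passed, the closest being Fdft1 at 0.30 (adjusted p = 0.0548), and the median was 0.055. The 2 Tg2576 comparisons share the vehicle animals, so their opposite signs are not independent.

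Other regulators of the same machinery had list medians near 0, though single genes differed by more. None of 22 further endoplasmic reticulum and Golgi proteins of SREBP processing or of INSIG and HMG-CoA reductase turnover passed in any comparison, with medians of 0.011, -0.032 and 0.019 in the order used above. The smallest p-values belonged to Ufd1, a ubiquitin-dependent extraction factor, at 0.18 for genotype, to Erlin1, a sterol-binding membrane protein, at -0.15 for the drug in Tg2576, and to Fbxw7, a ubiquitin ligase subunit that targets nuclear SREBP, at 0.13 for treated Tg2576 against wild type. None of 16 other sterol transfer proteins passed in any comparison, the closest for genotype being Stard3nl at 0.15. The list medians for sterol transfer were 0.017, -0.004 and -0.005.

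Of 8 other substrates of the site-1 and site-2 proteases tested, 1 rose with the drug: Srebf1, the gene of SREBP1 and an LXR target, by 0.63 against Tg2576 vehicle (limma adjusted p = 0.000164) and by 0.69 against wild type (adjusted p = 1.87e-05). Srebf2 1452174_at, its paralog among the members, differed by -0.086 and 0.18 in those comparisons. Of 8 LXR receptors and targets, read as a check that the drug acted, 3 rose against Tg2576 vehicle: Abca1 and Abcg1, exporters of cholesterol, by 0.61 and 0.42, and Scd1, a fatty acid desaturase, by 0.66. Against wild type Abca1 and Scd1 rose, by 0.55 and 0.64. No LXR gene of the list passed between the vehicle groups.

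**Figure D4:**
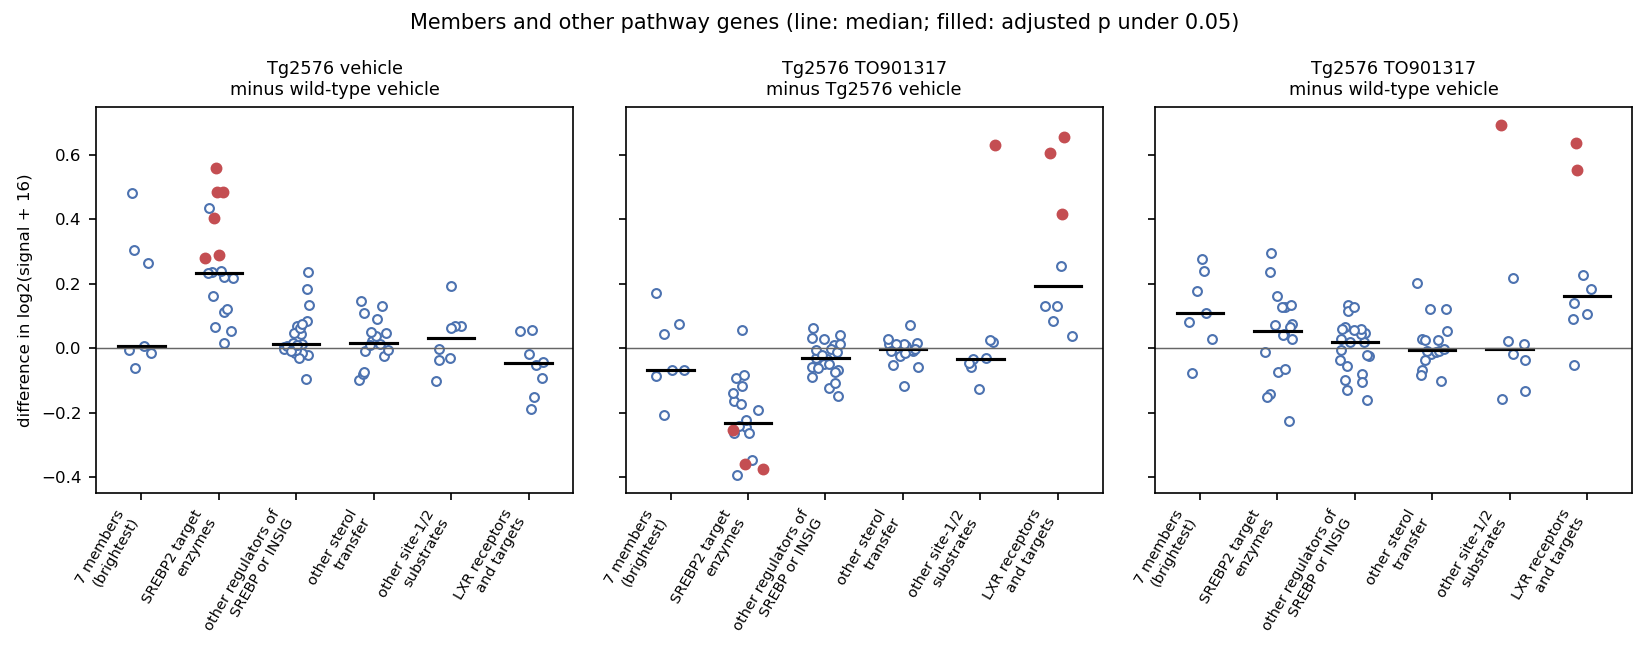
Differences in log2(signal + 16) on the vertical axis for the 7 members and the genes of the 5 lists, 1 point per gene by its probe set of highest mean, with the median as a line and filled points at an adjusted p under 0.05. No member is filled, since Stard4 is drawn by 1429240_at; 6 of 18 SREBP2 targets are filled above 0 for Tg2576 vehicle minus wild-type vehicle and 3 below 0 for TO901317 minus vehicle in Tg2576.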

How the data were processed

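Total RNA of dissected hippocampus was biotin-labelled and hybridised with 1 array per animal, and groups and replicate numbers were taken from the labels. The deposited values are probe set intensity on a linear scale; MAS5 is the only tool in the submitters' processing notes, with neither version nor settings. The trimmed mean of 99.97 on every array shows that signals were scaled to a common mean, which leaves differences in distribution between arrays. The table holds 45101 probe sets, of which 64 controls were left out; 34945 name 1 gene and 932 several.

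From these intensities log2(signal + 16) was computed, the lowest 40% by mean was left out, and all 33 arrays were fitted with 1 mean per group in limma 3.58.1 under R 4.3.3 (eBayes with trend and robust), with Benjamini-Hochberg adjustment over the 27022 probe sets and a limit of 0.05. Correlations used deviations from group means and 100000 permutations within groups, two-sided. Both steps were tested on simulated data. The number of arrays limits the precision. Named genes were the members, per list and comparison up to 4 genes of smallest p that passed (or the gene of smallest p where none did), Abca1 and Srebf1, and the 3 genes most like each member. The members and lists were chosen with earlier results of these data known. Replicate numbers were not shown to pair the animals: the deviations of same-numbered animals correlated above 0.1 in 2, 7 and 4 of 11 pairs in the 3 comparisons. Pseudocount, filter, normalization, probe set choice, covariates and left-out arrays were varied. Promoter windows come from RefSeq on GRCm38.p6; the authors name no build.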

Additional observations from a re-analysis of the deposited data

How the results depend on the processing

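The count of member probe sets that passed between Tg2576 vehicle and wild-type animals was 1 and depended on several choices. It was 2 with the lowest 60% left out, with array medians centred, with the mean of the probe sets of a gene, without both Tg2576 vehicle arrays of high Gapdh ratio and without the 3 arrays of lowest correlation. It was 3 with quantile normalization, 4 with the Gapdh ratio as a covariate, and 0 with tissue marker scores and with the rank-sum test, which called 1 and 0 of all probe sets. It was 1 to 3 with single arrays left out, above 1 without wild-type replicate 5 or 6 or Tg2576 vehicle replicate 4, 5 or 6. In every setting only Stard4 and Insig1 were among those that passed, counted as genes where their probe sets were averaged. Over all probe sets, the count in that comparison ran from 0 to 66 over the alternatives, against 43 as reported, in TO901317 against vehicle Tg2576 from 0 to 59, against 38, and in treated Tg2576 against wild type from 0 to 86, against 39. Stard4 1455011_at passed in 13 of the 15 alternatives that tested it, missing only with marker scores (adjusted p = 0.28) and the rank-sum test (0.303), and in all 22 fits without 1 array. With 1 probe set per gene it was not tested, since Stard4 was then read by 1429240_at. The count of members stayed at 1 in that setting, but the member that passed was Insig1 and not Stard4. In both drug comparisons the count was 0 in all 17 alternatives and all 22 fits without 1 array. With the replicate block, the counts were 1, 0 and 0 in the 3 comparisons, and 50, 38 and 42 of all probe sets passed, against 43, 38 and 39 without it; the block gave 0 member pairs. The count of correlated pairs was 0; it became 2 when group means were kept, 1 by Spearman rho, 2 with the Gapdh ratio removed and 0 to 1 with single arrays left out, at 1 without wild-type replicate 1, Tg2576 vehicle replicate 7 or TO901317 replicate 6.

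Sign changes were limited to differences that did not pass, and their causes were not tested. For Tg2576 vehicle minus wild type, marker scores gave -0.113 for Insig2 1417982_at, 0.019 for Mbtps1 1448240_at, 0.004 for Mbtps2, -0.202 for Srebf2 1426744_at and -0.042 for Stard4 1429239_a_at. Scap turned to -0.019 with the Gapdh covariate, -0.020 without the high-ratio arrays and -0.011 without the arrays of lowest correlation. Array weights gave -0.00014 for Insig2 1417980_a_at, the mean of probe sets 0.006 for Insig2 and centred medians 0.00011 for Mbtps2. For TO901317 minus vehicle in Tg2576, Insig2 1417982_at turned to -0.008 with centred medians, -0.074 with the Gapdh covariate, -0.048 without the high-ratio arrays and -0.021 without those of lowest correlation. There Mbtps1 1431385_a_at was -0.029 with the Gapdh covariate, Srebf2 1426744_at -0.003 without the arrays of lowest correlation, and Srebf2 0.018 as a mean of probe sets. For treated Tg2576 minus wild type, marker scores gave -0.067 for Insig2 1417982_at, -0.070 for Srebf2 1426744_at and -0.095 for Stard4 1429239_a_at, and Mbtps1 1431385_a_at was 0.004 with a pseudocount of 1 and 0.002 with array weights.

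With single arrays left out, differences of Tg2576 vehicle from wild type ran from -0.024 to 0.046 for Insig2 1417980_a_at, -0.041 to 0.005 for Mbtps1 1448240_at, -0.030 to 0.011 for Mbtps2, -0.014 to 0.040 for Scap and -0.027 to 0.097 for Srebf2 1426744_at. Those of treated from vehicle Tg2576 ran from -0.027 to 0.032 for Insig2 1417982_at, and those of treated Tg2576 from wild type from -0.053 to 0.041 for Mbtps1 1431385_a_at. Of the tested members, Mbtps1 1431385_a_at, with a mean signal of 16.8, lay close to the filter limit of 13.9 and was left out with the lowest 60%.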
